A study of Mus musculus with 7 samples.

Results

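Levels of the genes Cd207, Gp2, Adgrf5, Adgrl3 and Apol7c are described in CD8 dendritic cells of C57BL/6 mice. They are 5 of the 27179 genes listed in each count file, and all 5 were among the 10863 genes with enough counts to be tested. They were chosen by the counts measured in these same libraries. The choice was for genes kept or raised in CD103 low cells and nearly lost in CpG CD103 high cells. The differences of the 5 genes between those groups are therefore given as a description, with no test. Apol7c was reduced rather than nearly lost, with 14.7% of its CD103 negative level left in CpG CD103 high cells. The choice was a list of names with no numeric threshold, and other genes of a similar pattern, described below, lay outside it.

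The study compared sorted CD8 dendritic cells by their surface level of CD103, the integrin chain encoded by Itgae, using RNA sequencing of 7 samples isolated by fluorescence-activated sorting. CD103 negative cells (n = 3) and CD103 low cells (n = 2) came from mice labelled as untreated. CD103 high cells (n = 2) were labelled as treated with CpG, a DNA motif sensed by Toll-like receptor 9, and this group is named CpG CD103 high. Samples of 1 population are biological replicates, per the series' design text. All samples shared the C57BL/6 strain, and no transgene or deleted allele is named in the labels. The labels date both CpG samples and the first 2 CD103 negative samples to 2012, and the third CD103 negative sample and both CD103 low samples to 2013. The sources used here do not give what was done on those dates, the tissue, the dose, the time after treatment or the age of the mice. Every CpG sample is also CD103 high and no other sample is, so the agent and the CD103 level cannot be told apart.

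The libraries held 4474211 to 4629181 counts each, so 3 counts corresponded to between 0.638 and 0.690 counts per 1000000 counts (CPM). The Itgae level followed the labels, with 61.7, 62.7 and 54.3 CPM in CD103 negative replicates 1, 2 and 3, 346 and 375 CPM in CD103 low, and 1019 and 992 CPM where cells were sorted as CD103 high. All 21 genes on a list for type 1 conventional dendritic cells were detected, and Cd8a had a mean of 1325 to 1406 CPM in the 3 groups. CD103 negative replicate 3 stood apart from replicates 1 and 2 of its group. In a fit over all genes, 376 of 10863 (3.46%) differed between that library and the other two at an adjusted p under 0.05 (edgeR quasi-likelihood test, Benjamini-Hochberg). That comparison has a single library on 1 side, so its spread was supplied by the other groups, and its count ran from 93 to 612 when 1 other library was left out. Replicate 3 is the only CD103 negative library of 2013. With group and date both in the fit, each fitted value of CD103 low against CD103 negative therefore sets the 2 CD103 low libraries against replicate 3 alone, and each fitted value of CpG CD103 high against CD103 negative uses the 2012 libraries. The fitted value of CpG CD103 high against CD103 low is the difference of these and so rests on replicate 3 too.

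CD8 dendritic cells are the mouse type 1 conventional dendritic cells, known for taking up dead cells and presenting their antigens to CD8 T cells. The 5 genes belong to different families. Cd207 encodes langerin, a C-type lectin that binds sugars on microbes and builds the Birbeck granules of Langerhans cells, and in mice it also marks a subset of CD8 dendritic cells. Gp2 encodes glycoprotein 2, a lipid-anchored protein with a zona pellucida domain, known from the zymogen granules of the pancreas and as a bacterial receptor on intestinal M cells. Adgrf5 (also Gpr116) and Adgrl3 (latrophilin 3) encode adhesion G protein-coupled receptors, cell surface proteins with long extracellular parts. Adgrf5 is known from endothelium and from lung epithelium, where it restrains surfactant, and Adgrl3 from synapses, where it binds FLRT and teneurin proteins. Apol7c encodes an apolipoprotein L, a family of lipid-binding and membrane-inserting proteins. It has been linked to the phagosomes of dendritic cells in cross-presentation.

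The genes lie on 5 chromosomes (build mm10). Cd207 (Entrez 246278) spans chr6:83671207-83677857 and Gp2 (Entrez 67133) spans chr7:119442537-119459272. Adgrf5 (Entrez 224792) spans chr17:43360329-43459557, Adgrl3 (Entrez 319387) spans chr5:81019085-81827825 and Apol7c (Entrez 108956) spans chr15:77524852-77533335. To see whether genes that moved together carried the same short motifs at their starts, the 250 bases before each listed start were taken from RefSeq (GRCm38.p6, the assembly of mm10). All 5 genes matched, with 1 start each for Cd207, Gp2 and Apol7c, 2 for Adgrf5 and 3 for Adgrl3. The windows of the genes with a single start are printed 5′ to 3′ on the gene's strand, with motif matches in capitals. The window of Cd207 is chr6:83677858-83678107, that of Gp2 is chr7:119459273-119459522 and that of Apol7c is chr15:77533316-77533565, all on the minus strand.
Cd207: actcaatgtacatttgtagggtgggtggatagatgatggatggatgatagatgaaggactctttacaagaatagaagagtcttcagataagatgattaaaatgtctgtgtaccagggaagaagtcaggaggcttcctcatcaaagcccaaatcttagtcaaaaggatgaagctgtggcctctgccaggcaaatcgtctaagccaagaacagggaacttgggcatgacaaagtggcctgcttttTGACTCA
Gp2: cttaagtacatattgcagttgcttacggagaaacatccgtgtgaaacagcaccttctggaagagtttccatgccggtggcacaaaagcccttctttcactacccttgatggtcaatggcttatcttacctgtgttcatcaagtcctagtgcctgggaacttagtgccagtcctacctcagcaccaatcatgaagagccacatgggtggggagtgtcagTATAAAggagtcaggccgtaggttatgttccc
Apol7c: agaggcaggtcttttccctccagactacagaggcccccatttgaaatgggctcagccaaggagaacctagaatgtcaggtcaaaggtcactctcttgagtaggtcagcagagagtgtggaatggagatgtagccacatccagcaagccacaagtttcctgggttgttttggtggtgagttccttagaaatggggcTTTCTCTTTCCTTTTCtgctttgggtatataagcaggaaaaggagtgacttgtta

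No motif searched was found in all 5 genes. Searches covered both strands. Among the 5 genes, the AP-1 motif TGANTCA occurred at Cd207 alone, as TGACTCA with its first base 7 bases before the start, and it occurred in 6.75% of 32851 RefSeq windows of this length. The TATA box TATAAA occurred at Gp2, with its first base 32 bases before the start, at the second start of Adgrl3, 28 bases before it, and in 12.4% of windows. Only these exact letters were searched, so other forms of a TATA box were not counted or marked in any window. The core of the interferon-stimulated response element (GAAA, any 2 bases, GAAA) occurred at Apol7c as 2 overlapping matches on the other strand, which begin 55 and 49 bases before the start. It also occurred at the second start of Adgrl3, 67 bases before it, and in 2.98% of windows. Neither window of Adgrf5 held any motif searched. The other motifs searched were the ETS-IRF composite (GGAA, any 2 bases, GAAA, in 2.30% of windows), GAGGAAGT (PU.1, 2.44%), an NF-kB motif (GGG, any 2 bases, TTTCC, 1.41%), TGTGGTT (RUNX, 4.40%), GTCTAGAC (SMAD, 0.167%) and CACGTG (E-box, 6.02%), and no window of the 5 genes held them. The GC content of the windows was 43.6% at Cd207, 48.4% at Gp2, 47.6% at Apol7c, 54.4% and 44.8% at Adgrf5, and 76.8%, 66.0% and 60.0% at Adgrl3, against a median of 52.4% over all windows.

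Levels are given as CPM scaled by the TMM factor of each library, and CPM of different genes are not compared since it does not account for gene length. In every one of the 5 genes, both CpG CD103 high libraries lay below all 5 untreated libraries, as was so for 1909 of 10863 tested genes (17.6%). In every one, both CD103 low libraries lay above all 3 CD103 negative libraries, as was so for 16.2% of tested genes. Both counts follow from how the genes were chosen. These are bulk samples, so fewer cells that express a gene and less RNA per cell cannot be told apart.

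**Figure D1:**
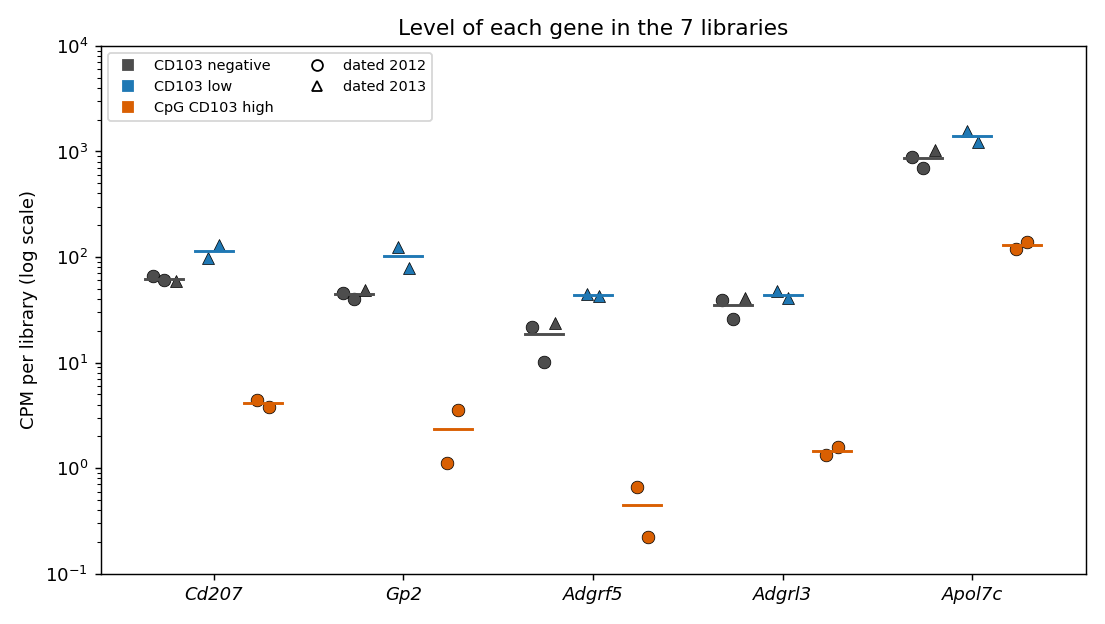
CPM (log scale) of the 5 genes in each of the 7 libraries, with points as libraries, shape as the date in the labels and horizontal lines as group means. For each gene the 2 CpG CD103 high points lie below all untreated points, by the widest margin for Adgrf5 (0.224 and 0.666 CPM against 10.1 CPM or more).

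Cd207, the lectin of Birbeck granules, measured 65.9, 61.0 and 59.4 CPM (300, 283 and 279 counts) in CD103 negative replicates 1, 2 and 3. It measured 98.3 and 131 CPM (433 and 570 counts) in CD103 low replicates 1 and 2. CpG CD103 high replicates 1 and 2 had 4.44 and 3.81 CPM (20 and 17 counts). The 3 CD103 negative libraries lay close together across both dates, both CD103 low libraries stood above them, and both CpG libraries fell far below every untreated library. Group means were 62.1 ± 3.38 CPM (SD, n = 3) in CD103 negative, 115 ± 23.1 CPM (n = 2) in CD103 low and 4.12 ± 0.443 CPM (n = 2) in CpG CD103 high. The fitted log2 fold change was -3.93 (SE 0.21) in CpG CD103 high against CD103 negative and -4.88 (SE 0.29) against CD103 low. It was 0.95 (SE 0.18) in CD103 low against CD103 negative replicate 3. The CD103 low level was 193% of that library and 185% of all 3 CD103 negative libraries. CpG CD103 high cells held 6.65% of the summed CD103 negative level (95% Clopper-Pearson interval 4.65 to 9.24%) and 3.60% of the CD103 low level (2.52 to 5.00%). Such intervals cover counting error only.

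Gp2, the zona pellucida protein, measured 45.5, 39.7 and 48.7 CPM (207, 184 and 229 counts) in CD103 negative replicates 1, 2 and 3. It measured 124 and 79.1 CPM (545 and 344 counts) in CD103 low replicates 1 and 2. With CpG it was down to 1.11 and 3.59 CPM (5 and 16 counts). The CD103 negative libraries again lay close together, the CD103 low libraries differed from each other by 1.56 times while both stood above them, and the CpG libraries differed by 3.23 times, both near the lower end of what could be counted. Group means were 44.6 ± 4.59 CPM (SD, n = 3) in CD103 negative, 101 ± 31.6 CPM (n = 2) in CD103 low and 2.35 ± 1.75 CPM (n = 2) in CpG CD103 high. The fitted log2 fold change was -4.17 (SE 0.38) in CpG CD103 high against CD103 negative and -5.22 (SE 0.49) against CD103 low, and 1.06 (SE 0.28) in CD103 low against CD103 negative replicate 3. The CD103 low level was 208% of that library and 228% of all 3 CD103 negative libraries. The CpG cells held 5.25% of the CD103 negative level (3.22 to 8.09%) and 2.31% of the CD103 low level (1.42 to 3.55%).

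Since Gp2 is known from pancreas and M cells, their markers were read beside it. Of 19 such genes, 11 were tested, and their summed level was 173 to 213 CPM in CpG CD103 high, 218 to 244 CPM in CD103 negative and 213 to 238 CPM in CD103 low. The acinar genes named here had few counts and were chosen after their values were seen, so they do not stand for the whole list. The lipase gene Pnlip had 31 and 35 counts in CD103 negative replicates 1 and 2, 28 counts in CpG CD103 high replicate 2 and 0 counts in the other 4 libraries. Gp2 had its highest counts in the CD103 low libraries, where Pnlip, Prss2, Cpa1, Cpb1, Cela2a, Ctrb1 and Cel all had 0 counts. The summed level there therefore came from other genes of the list. The part of such cells in the level of Gp2 was not tested. Over the 11 tested genes 2 were lower in CpG CD103 high than in CD103 negative and 0 were higher, beside 11.8% and 14.5% of all tested genes, with a median log2 fold change of -1.19 against -0.01 for all tested genes. These 2 were Cpb1, with 17, 16 and 0 counts in CD103 negative replicates 1, 2 and 3 and 0 and 5 in CpG (a call lost under 6 alternatives), and Spib (-2.50, SE 0.48, adjusted p = 0.00437), a transcription factor that plasmacytoid dendritic cells and B cells also use.

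Adgrf5, the adhesion receptor of endothelium and lung epithelium, measured 21.5, 10.1 and 23.8 CPM (98, 47 and 112 counts) in CD103 negative replicates 1, 2 and 3. It measured 44.7 and 42.3 CPM (197 and 184 counts) in CD103 low replicates 1 and 2. The CpG CD103 high libraries held 0.666 and 0.224 CPM, from 3 counts and 1 count. CD103 negative replicate 2 was the low library of its group, both CD103 low libraries lay close together, and the CpG libraries were at the level of 3 counts or under. Group means were 18.5 ± 7.34 CPM (SD, n = 3) in CD103 negative, 43.5 ± 1.72 CPM (n = 2) in CD103 low and 0.445 ± 0.312 CPM (n = 2) in CpG CD103 high. The fitted log2 fold change was -5.06 (SE 0.58) in CpG CD103 high against CD103 negative and -5.93 (SE 0.68) against CD103 low, and 0.87 (SE 0.31) in CD103 low against CD103 negative replicate 3. The CD103 low level was 183% of that library (95% counting interval 148 to 228%) and 235% of all 3 CD103 negative libraries (200 to 277%). With 4 counts in all, the CpG cells held 2.41% of the CD103 negative level (0.652 to 6.25%) and 1.03% of the CD103 low level (0.278 to 2.65%). The size of the difference is therefore known less well for Adgrf5 than for the other 4 genes.

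Endothelial markers were read beside Adgrf5. Of 17 such genes, 6 were tested, and their summed level was 102 to 108 CPM in CpG CD103 high, 103 to 149 CPM in CD103 negative and 146 to 152 CPM in CD103 low. Emcn, Sox17 and Erg had 0 counts in every library, and Cldn5, Tie1, Tek and Robo4 had at most 2, while other untested genes had up to 10. Stab2, also listed, had means of 2.01 CPM in CpG CD103 high, 2.45 CPM in CD103 negative and 5.70 CPM in CD103 low. That is the group order of Adgrf5, which Kdr did not share. The part of endothelial RNA in the level of Adgrf5 was not tested. Pecam1, which dendritic cells also express, had 272 and 258 counts in the CpG libraries and 297 to 446 in the untreated ones. Of the 6 tested genes, 1 was higher and 0 were lower in CpG CD103 high than in CD103 negative. Of all tested genes 14.5% were higher and 11.8% lower. The 1 gene was Kdr, a vascular growth factor receptor (1.67, SE 0.40, edgeR adjusted p = 0.0128). Its direction turned when the date was left out of the fit (-0.02). Its counts were 7, 8 and 59 in CD103 negative replicates 1, 2 and 3, 12 and 7 in CD103 low and 22 and 25 in CpG CD103 high. The median of the 6 genes was -0.25.

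Adgrl3, the latrophilin, measured 39.3, 25.7 and 40.7 CPM (179, 119 and 191 counts) in CD103 negative replicates 1, 2 and 3. It measured 47.2 and 40.9 CPM (208 and 178 counts) in CD103 low replicates 1 and 2. Only 1.33 and 1.57 CPM (6 and 7 counts) were left in CpG CD103 high replicates 1 and 2. CD103 low replicate 2 lay barely above CD103 negative replicate 3, and the CpG libraries lay close to each other far below. Group means were 35.2 ± 8.30 CPM (SD, n = 3) in CD103 negative, 44.1 ± 4.46 CPM (n = 2) in CD103 low and 1.45 ± 0.168 CPM (n = 2) in CpG CD103 high. The fitted log2 fold change was -4.46 (SE 0.33) in CpG CD103 high against CD103 negative, -4.58 (SE 0.42) against CD103 low and 0.12 (SE 0.23) in CD103 low against CD103 negative replicate 3. The CD103 low level was 109% of that library (91.0 to 130%) and 125% of all 3 CD103 negative libraries (109 to 143%). The CpG cells held 4.12% of the CD103 negative level (2.18 to 7.11%) and 3.29% of the CD103 low level (1.73 to 5.69%).

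The ligand side of Adgrl3 was not detected at a level that could be tested. Of 11 listed partners (FLRT, teneurin and UNC5 genes), 0 had enough counts, and 8 of them had 0 counts in every library, which allows up to 0.690 CPM each. Unc5a, the most abundant, had 2 to 9 counts per library. Of 10 neuronal marker genes, only Tubb3 was tested (0.12, SE 0.61, adjusted p = 0.904), 5 had 0 counts in every library, and the summed level was 1.34 to 3.99 CPM in CpG CD103 high, 1.98 to 2.37 CPM in CD103 negative and 2.50 to 3.22 CPM in CD103 low.

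Apol7c, the apolipoprotein L, measured 885, 697 and 1034 CPM (4032, 3235 and 4857 counts) in CD103 negative replicates 1, 2 and 3. It measured 1553 and 1228 CPM (6838 and 5342 counts) in CD103 low replicates 1 and 2. The 2 CpG CD103 high libraries held 119 and 138 CPM (538 and 616 counts). CD103 negative replicate 3 was the high library of its group, both CD103 low libraries were higher still, and both CpG libraries were far lower but well above the counting limit. Group means were 872 ± 169 CPM (SD, n = 3) in CD103 negative, 1390 ± 230 CPM (n = 2) in CD103 low and 129 ± 13.2 CPM (n = 2) in CpG CD103 high. The fitted log2 fold change was -2.62 (SE 0.15) in CpG CD103 high against CD103 negative and -3.05 (SE 0.23) against CD103 low, and 0.43 (SE 0.17) in CD103 low against CD103 negative replicate 3. The CD103 low level was 135% of that library and 159% of all 3 CD103 negative libraries. The CpG cells held 14.7% of the CD103 negative level (13.9 to 15.7%) and 9.25% of the CD103 low level (8.70 to 9.82%), so Apol7c kept the largest share of the 5 genes.

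**Figure D2:**
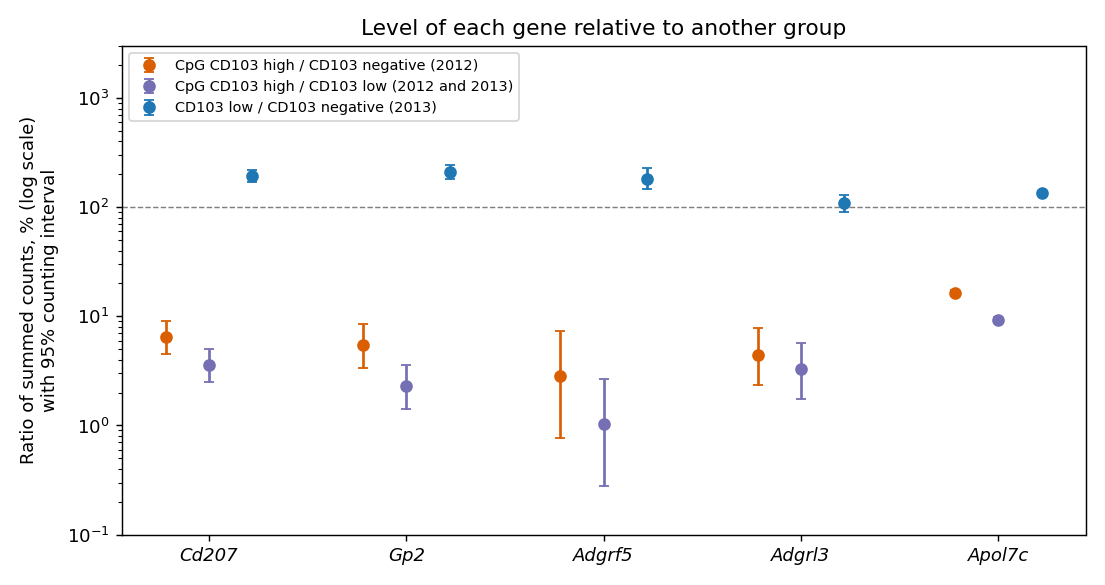
Level of each gene in 1 group as a percent of another, from counts summed over libraries and scaled by library size (log scale), with 95% Clopper-Pearson intervals for counting error and a dashed line at equal levels. CpG CD103 high lies far below the line for all 5 genes, with the widest intervals for Adgrf5 (4 counts in CpG), and the 2013 ratio of CD103 low to CD103 negative is nearest to the line for Adgrl3, where the interval (91.0 to 130%) spans it.

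The order of the groups was CD103 low, then CD103 negative, then CpG CD103 high for each gene. The step from CD103 negative down to CpG CD103 high exceeded the spread over libraries in all 5. The step from CD103 low to CD103 negative was smaller. For Adgrl3 it depended on the CD103 negative libraries used, with a log2 change of 0.12 (SE 0.23) against replicate 3 alone and 0.41 against replicates 1 and 2. Among all 10863 tested genes ordered by the fold change in CpG CD103 high against CD103 negative, the 5 genes ranked 8 (Adgrf5), 10 (Adgrl3), 12 (Gp2), 18 (Cd207) and 60 (Apol7c) from the lowest. The fit called 1284 genes (11.8%) lower in that comparison, 302 (2.78%) lower in CpG CD103 high against CD103 low, and 6 (0.0552%) higher in CD103 low against CD103 negative.

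**Figure D3:**
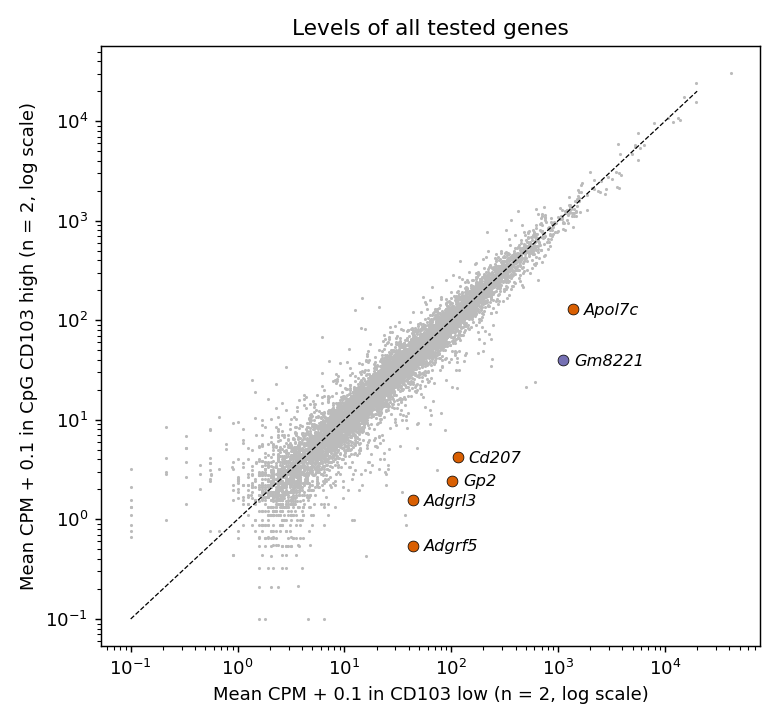
Mean CPM + 0.1 in CpG CD103 high (n = 2) against CD103 low (n = 2) for all 10863 tested genes, both axes on a log scale, with a dashed line of equal levels. The 5 genes (orange) lie far below the line, as does Gm8221 (purple), an annotated pseudogene near Apol7c with a mean of 39.6 CPM against 1122 CPM.

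Per length, the genes sat at different places among the tested genes. RPKM values (CPM per kilobase of gene length) were computed with the deposited gene length. In CD103 negative cells the mean was 427 ± 82.5 RPKM for Apol7c (SD, n = 3), 40.6 ± 2.21 RPKM for Cd207, 22.6 ± 2.32 RPKM for Gp2, 6.06 ± 1.43 RPKM for Adgrl3 and 2.17 ± 0.859 RPKM for Adgrf5. These levels stood at percentiles 98.9, 83.0, 70.5, 34.4 and 14.1 of the tested genes, in that order. In CpG CD103 high cells the same genes stood at percentiles 89.6, 17.7, 7.61, 0.893 and 0.110. Apol7c thus stayed among the abundant tested genes in all 3 groups, while Adgrl3 and Adgrf5 were in the lowest 1% of tested genes with CpG. Genes scarce in every library were not tested and so not ranked. Adgrl3 and Adgrf5 passed the expression filter through their untreated libraries, so their low place with CpG follows in part from that filter.

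The comparison between dates within CD103 negative cells was not used in choosing the genes and was tested. In replicate 3 (2013) against replicates 1 and 2 (2012), the log2 fold change was -0.10 for Cd207 (SE 0.18, adjusted p = 0.817, edgeR), 0.20 for Gp2 (SE 0.29, adjusted p = 0.757) and 0.59 for Adgrf5 (SE 0.33, adjusted p = 0.355). For Adgrl3 it was 0.33 (SE 0.23, adjusted p = 0.470) and for Apol7c 0.39 (SE 0.17, adjusted p = 0.227). Replicate 3 is 1 library, so the spread of this comparison came from the other groups. Of the 5 genes 0 passed the threshold with edgeR and 0 with DESeq2, beside a share of 3.46% over all genes, which does not show that their levels were equal on both dates. Apol7c was the 1 gene whose unadjusted edgeR quasi-likelihood p was under 0.05 (0.0433). Without CD103 negative replicate 3 the log2 fold change in CD103 low against CD103 negative was 0.83 for Cd207, 1.23 for Gp2, 1.43 for Adgrf5, 0.41 for Adgrl3 and 0.79 for Apol7c. In that setting date and CD103 level cannot be told apart.

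The 5 genes were not the only ones with this shape. Fitted changes of -2 or lower on the log2 scale in CpG CD103 high against both untreated groups, with a change of 0 or higher in CD103 low against CD103 negative, were found in 45 genes (0.414% of those tested). These were the 5 genes and 40 others, and in 38 of the 45 no CpG library overlapped an untreated one. Most were scarce: 13 of the 45 had an average log2 CPM of at least 4, and 5 of these 13 are the genes described. The other abundant ones were Hspa1a and Hspa1b (heat-shock chaperones), Cxcr4 (a chemokine receptor), Ccl6 (a chemokine), Sulf2 (a sulfatase), Gm8221, and the mitochondrial genes ATP6 and COX3. For ATP6 and COX3 the CpG libraries overlapped untreated ones. The change in CD103 low is again against replicate 3, and for Hspa1a, Hspa1b, Cxcr4, ATP6 and COX3 the mean of CD103 low was below that of all 3 CD103 negative libraries (503 against 710 CPM for Hspa1a, 603 against 742 CPM for Hspa1b and 63.8 against 127 CPM for Cxcr4). Ccl6, Sulf2 and Gm8221 had a higher mean in CD103 low, as the 5 genes did. The same condition left out Mefv, Pcsk5 and Clec4b2, with fitted changes of -0.14, -0.07 and -0.08. Their means were nonetheless higher in CD103 low than in CD103 negative (72.8 against 61.9 CPM, 15.8 against 12.9 CPM and 34.4 against 26.9 CPM). How large a part of such genes the 5 make up therefore depends on that condition. Of 128 tested genes with a change of -2 or lower in CpG CD103 high against CD103 negative, 45 (35.2%) had a change of 0 or higher in CD103 low against CD103 negative, a sign that 52.4% of all tested genes had.

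The genes closest to each of the 5 in the shape of their levels over the 7 libraries were read next, and likeness among the 5 follows from how they were chosen. Likeness was the root mean square difference of log2 CPM after centring each gene on its own mean, a description with no test. Only tested genes with a symbol other than a predicted name (Gm or Rik) were ranked. Gm8221 was therefore not ranked, and the closest genes named below are closest among those ranked. Among the 5, the closest pair was Cd207 and Adgrl3 (0.36) and the most distant pair was Adgrf5 and Apol7c (0.95). The 3 closest genes to Adgrl3 were Mefv (0.15), which encodes the inflammasome protein pyrin, Pcsk5 (0.23), a proprotein convertase, and Cd207. Those closest to Cd207 were Pcsk5 (0.33), Adgrl3 and Mefv (0.44), and those closest to Gp2 were Mefv (0.49), Adgrl3 (0.51) and Clec4b2 (0.52), a C-type lectin. Adgrf5 had Adgrl3 (0.55), Cd207 (0.56) and Pcsk5 (0.57) as its closest. Apol7c stood among other genes, namely Col27a1 (0.29), a collagen, Pcdh1 (0.32), a protocadherin, and Fgfr1 (0.33), a fibroblast growth factor receptor. Mefv had means of 3.01 CPM in CpG CD103 high, 61.9 CPM in CD103 negative and 72.8 CPM in CD103 low, and Pcsk5 had 0.334, 12.9 and 15.8 CPM in the same order.

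Genes beside the 5 on their chromosomes were not used in choosing them. Up to 3 tested genes on each side gave 30 neighbours. In CpG CD103 high against CD103 negative 3 rose and 6 fell, so 9 of 30 passed the threshold (edgeR). Of all tested genes 26.3% passed, 14.5% higher and 11.8% lower. In CD103 low against CD103 negative 0 of 30 passed with edgeR and 4 had an unadjusted p under 0.05, where 0.138% of all tested genes passed. DESeq2 called 0 of the neighbours and gave no adjusted p for 3. None of the 6 neighbours of Gp2 passed, with adjusted p-values from 0.0519 (Ppp1ccb) to 0.979 (Eri2). Beside Cd207, only Nagk, a sugar kinase gene, passed and rose by 0.69 (SE 0.11, adjusted p = 0.00142). Beside Adgrf5, only Mmut, a mitochondrial mutase gene 2400 kb away, passed (-0.55, SE 0.18, adjusted p = 0.0430). The tested genes nearest to Adgrl3 lay 3670 to 4280 kb away, and 4 of 6 passed: Rest (0.67, adjusted p = 0.0461), Noa1 (-0.57, adjusted p = 0.0187), Polr2b (-0.34, adjusted p = 0.0305) and Stap1 (-0.71, adjusted p = 0.00615). The calls of Mmut and Polr2b were each lost under 9 alternatives, that of Rest under 8 and that of Noa1 under 4.

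**Figure D4:**
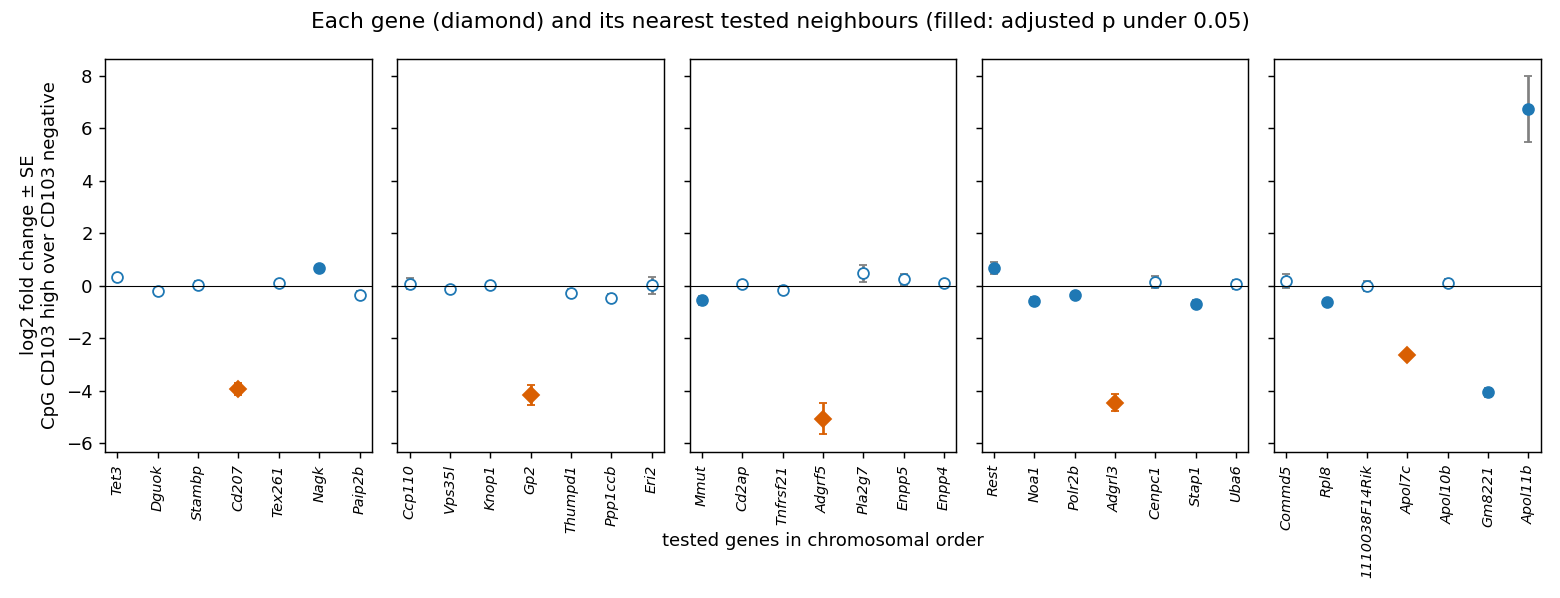
Log2 fold change ± SE in CpG CD103 high against CD103 negative for each gene (orange diamond) and its nearest tested neighbours in chromosomal order (circles, filled where the adjusted p was under 0.05). Neighbours lie between -0.71 and 0.69 except Gm8221 (-4.06) and Apol11b, whose fitted value rests on a CD103 negative group with 0 counts.

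Of the 6 neighbours of Apol7c, 3 passed: Rpl8, a ribosomal protein gene (-0.63, SE 0.08, adjusted p = 0.000384), Gm8221 and Apol11b. Gm8221 (Entrez 666661), annotated as a pseudogene at chr15:77618968-77627398, 85.6 kb away, measured 743, 577 and 881 CPM in CD103 negative replicates 1, 2 and 3 and 1221 and 1024 CPM in CD103 low replicates 1 and 2. It was at 34.6 and 44.6 CPM with CpG. Its libraries fell in the same order of groups as those of Apol7c. It fell by 4.06 on the log2 scale against CD103 negative (SE 0.17, adjusted p = 1.21e-06) and by 4.41 against CD103 low (SE 0.25, adjusted p = 4.26e-05). Its transcript shares sequence with Apol7c: of the 50-base stretches of Gm8221, 30.8% also occur in Apol7c, and 15.9% of those of Apol7c occur in Gm8221. Of the 100-base stretches, the shares were 7.02% and 3.49%. How reads that fit both were counted, and their length, is not stated in the sources used here, so the counts of both genes are uncertain by the share of such reads.

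No other tested apolipoprotein L gene of the cluster was called lower with CpG. Apol10b, the nearest neighbour at 50.8 kb, measured 26.2 and 28.0 CPM in CpG CD103 high, 23.9, 26.3 and 24.1 CPM in CD103 negative and 29.7 and 34.5 CPM in CD103 low, a log2 fold change of 0.11 (SE 0.15, adjusted p = 0.621). Apol11b rose in CpG CD103 high (adjusted p = 0.00489), with 14 and 12 counts there, 0 counts in all 3 CD103 negative libraries and 1 and 0 counts in CD103 low. No fold is given for it, since 1 group had no count. The 10 other listed members found in the files were not tested, with at most 4 counts in any library, and 3 of them had 0 counts in every library. In CD103 low against CD103 negative 0 of the 2 tested relatives passed with edgeR, and 1 had an unadjusted p under 0.05. DESeq2 called 0 and gave no adjusted p for 1 of the 2.

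Relatives of the adhesion receptors were mostly scarce in these cells. Of 27 genes of the family, 9 were tested, 2 of which are Adgrf5 and Adgrl3. Of the other 7, 1 was higher in CpG CD103 high than in CD103 negative and 0 were lower, beside 14.5% and 11.8% of all tested genes, with a median log2 fold change of 0.23. That gene was Adgre5 (CD97), with a small change (0.23, SE 0.07, adjusted p = 0.0444) whose call was lost under 12 alternatives. Against CD103 low, where 6.22% of all tested genes passed, 0 of the 7 passed with edgeR and 0 had an unadjusted p under 0.05. DESeq2 called 0 and gave no adjusted p for 4 of the 7. The paralogs of Adgrl3 had few counts: Adgrl1 had 17 to 27 counts per library (0.24, SE 0.34, adjusted p = 0.641) and Adgrl2 had 4 to 13 (-1.02, SE 0.53, adjusted p = 0.184). Adgrl4 had at most 2 counts. Among the listed relatives of Adgrf5, none of which was tested, Adgrf1 and Adgrf4 had 0 counts in every library and Adgrf2 had at most 1. Adgrf3 had 7 and 4 counts in CpG CD103 high and at most 2 in any untreated library.

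C-type lectin receptor genes, the family of Cd207, moved in both directions. Of 13 tested besides Cd207, 4 were higher and 3 lower in CpG CD103 high than in CD103 negative, beside 14.5% and 11.8% of all tested genes, and their median was 0.05. Clec9a, the receptor for actin exposed on dead cells, rose by 0.75 (SE 0.08, adjusted p = 0.000207). Clec1a rose by 1.19 (SE 0.16, adjusted p = 0.000767), a call lost without the date term. Clec4b2 fell by 3.61 (SE 0.46, adjusted p = 0.000569), with 28.5, 15.7 and 36.4 CPM in CD103 negative replicates 1, 2 and 3, 37.5 and 31.3 CPM in CD103 low and 0.666 and 2.91 CPM in CpG CD103 high. In CD103 low against CD103 negative 0 of the 13 passed with edgeR, and 3 had an unadjusted p under 0.05. DESeq2 called 0 and gave no adjusted p for 6 of the 13. Of zona pellucida domain genes, the family of Gp2, only Eng, a receptor of the TGF-beta pathway, was tested besides Gp2 (0.71, SE 0.27, adjusted p = 0.0835).

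Genes named with langerin in Langerhans cells were called about as often as other genes. Of 11 tested besides Cd207, 2 were higher and 1 lower in CpG CD103 high than in CD103 negative, beside 26.3% of all tested genes called, and their median was -0.15. The higher ones were Itgae, on whose protein the cells were sorted, and Id2 (0.30, SE 0.09, adjusted p = 0.0407), a regulator of dendritic cell identity whose call was lost under 9 alternatives. Cldn1, a tight junction gene, fell by 1.77 (SE 0.27, adjusted p = 0.00141), with means of 3.46 CPM in CpG CD103 high, 11.5 CPM in CD103 negative and 18.2 CPM in CD103 low. Runx3 (-0.07, SE 0.12, adjusted p = 0.692), Tgfbr1 (0.09, SE 0.18, adjusted p = 0.764) and Tgfbr2 (0.26, SE 0.09, adjusted p = 0.0574), which are needed for Langerhans cells, did not pass. Epcam had 2 to 9 counts per library.

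**Figure D5:**
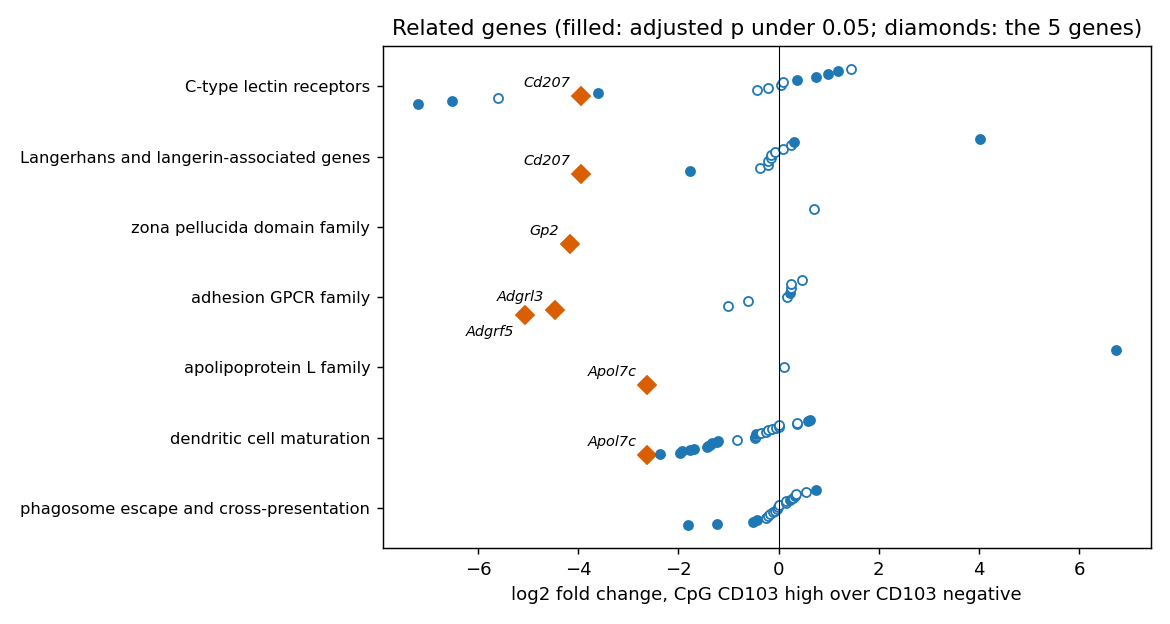
Log2 fold change in CpG CD103 high against CD103 negative for the tested genes of 7 lists (circles, filled where the adjusted p was under 0.05) with the 5 genes as orange diamonds. Most relatives lie near 0, and those beyond -5 or above 6 (Cd209 genes and Apol11b) are fitted values with 0 counts in 1 group, which give no fold.

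Genes of dendritic cell maturation, among which Apol7c is listed, fell more often than they rose with CpG. Of 27 tested besides Apol7c, 13 were lower and 2 higher, beside 11.8% and 14.5% of all tested genes, and their median was -0.47 beside -0.01 for all. Ccl5, a chemokine, fell by 2.36 (SE 0.11, adjusted p = 2.97e-06), Samsn1, a signalling adaptor, fell by 1.97 (SE 0.17, adjusted p = 6.83e-05) and Fscn1, an actin bundler, fell by 1.77 (SE 0.14, adjusted p = 4.61e-05). In CD103 low against CD103 negative only Ccl5 passed, and it fell by 0.90 (SE 0.12, adjusted p = 0.0382), while Apol7c had a fitted change of 0.43. Of 20 tested genes of phagosome escape and cross-presentation, 3 were higher and 4 lower with CpG, beside the same shares of all genes, with a median of -0.03. Mfge8, a bridge to dying cells, fell by 1.81 (SE 0.34, adjusted p = 0.00406).

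Markers of other cells that a sort could hold were read in the same libraries, where 14.5% of all tested genes were higher and 11.8% lower in CpG CD103 high than in CD103 negative. B cell genes were lower with CpG in 3 of 3 tested, and their summed level was 11.8 to 13.2 CPM in CpG CD103 high, 76.5 to 94.9 CPM in CD103 negative and 68.7 to 71.7 CPM in CD103 low. Most of it was Ms4a1 and Cd22, while Cd79a and Pax5 had at most 5 counts in any library. Genes of type 2 conventional dendritic cells were lower in 4 of 9, with sums of 66.3 CPM or less with CpG, 113 to 190 CPM in CD103 negative and 85.1 to 107 CPM in CD103 low. For plasmacytoid dendritic cells, 1 of 7 was higher and 3 were lower, with sums of 313 to 353, 334 to 410 and 330 to 350 CPM. For macrophages and monocytes, 1 of 8 was higher and 2 were lower, with sums of 55.4 to 101, 97.0 to 174 and 94.5 to 143 CPM. T and NK cell genes had 0 of 1 called, with sums of 8.07 to 11.1, 9.36 to 11.6 and 10.7 to 48.5 CPM. Neutrophil genes were higher in 2 of 2 and erythroid or platelet genes in 5 of 6, with sums of 19.0 to 26.2 and 41.5 to 43.3 CPM in CpG CD103 high against at most 3.88 and 21.6 CPM in untreated libraries. Of the genes of type 1 conventional dendritic cells, 13 of 21 were higher and 1 lower, with a median of 0.39. The part of these differences in the levels of the 5 genes was not tested.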

How the data were processed

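Each sample has a deposited file of unnormalized counts by gene with a gene length, per the file headers, and its values are whole numbers. CASAVA, Subread 1.4.6, featureCounts and the build mm10 are listed by the authors without roles, per the submitters' processing notes. The sources used here do not give the strand setting, the read length or the handling of multiply mapping reads, so reads from overlapping antisense genes cannot be told apart. Another table, with 7 columns that could not be matched to labels, was left out.

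Entrez identifiers were matched to symbols in the RefSeq gene table (25275 of 27179, 93.0%), and unmatched identifiers held 0.533% of counts. All 7 libraries entered 1 quasi-likelihood fit in edgeR 4.0.16 (limma 3.58.1, R 4.3.3) with group and date, TMM factors and edgeR's expression filter, which left 10863 genes and 3 residual degrees of freedom. P-values were adjusted by Benjamini-Hochberg over all of them, with a threshold of 0.05. Standard errors were obtained as the absolute log2 fold change over the root of its F statistic. The test was checked on simulated data, with the outcome not given here. CPM used the TMM-scaled library size over tested genes, and RPKM divided it by the deposited length. Intervals of ratios are exact binomial (Clopper-Pearson, 95%) and, like the limit of 3 counts, describe counting error only, as reads lacking molecular identifiers are not independent molecules.

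The 5 genes and all lists were chosen with earlier results of these data known, so the 3 group comparisons are a description for the 5 genes. The text names the 5 genes, Itgae, up to 3 called relatives of each list (or the most abundant where none was called), up to 3 tested neighbours on each side and the 3 closest genes by likeness (log2 CPM with a prior count of 2). The ranking by likeness took only genes with a symbol other than a predicted name (Gm or Rik). Other genes named, such as Pnlip, Adgrl1, Runx3 or Cd79a, and the abundant genes of the same shape were chosen after their values were seen. Alternatives were relative log expression factors, no filter, a stricter filter, DESeq2 1.42.0, no date term, the replicate number as a block, single dates, a larger prior count and leaving out each library.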

Additional observations from a re-analysis of the deposited data

How the results depend on the processing

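For the 5 genes, 183 of 220 recomputed fold changes lay within 1 SD of replicates of the value reported, 37 lay outside it and 0 changed sign. The change in CpG CD103 high against CD103 negative ran from -5.98 to -4.19 for Adgrf5 and from -5.24 to -3.56 for Gp2, the widest ranges, and from -4.05 to -3.81 for Cd207, -4.74 to -4.12 for Adgrl3 and -2.78 to -2.44 for Apol7c. In CD103 low against CD103 negative the range for Adgrl3 was 0.01 to 0.46. With 2 or 3 libraries a group, 4 counts in CpG for Adgrf5 limit its fold most.

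Counts over all genes moved more. In CD103 low against CD103 negative 15 genes passed, against 1 with no filter, 7 with the stricter filter, 33 with DESeq2 and 187 in 2013 alone. In CpG CD103 high against CD103 low 676 passed, against 263 with no filter and 390 with DESeq2. In CpG CD103 high against CD103 negative 2860 passed, against 1459 with DESeq2 and 1589 with no date term. For the dates 376 passed, against 103 with no filter and 208 with DESeq2. Genes of the same shape numbered 45, against 743 with no filter and 26 with the stricter one. Called neighbours numbered 9, against 5 with DESeq2.

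With 1 library left out at a time, the counts ran from 1738 to 2861 (CpG CD103 high against CD103 negative), 115 to 1668 (against CD103 low), 1 to 1035 (CD103 low against CD103 negative), 93 to 612 (dates), 26 to 80 (same shape) and 5 to 10 (neighbours). The highest values of 1035 and 1668 came without CD103 negative replicate 3 and without the date term, a setting chosen after seeing the data, since the date could then not be estimated beside CD103 low. A lone library was assumed to vary like the other groups. Kdr changed direction with no date term (-0.016). Of the other named genes, 889 recomputed values stayed on the same side of the threshold, 82 lost the threshold and 9 gained it. A change of sign was counted only where the value passed the threshold in either fit, and 1 was found. Values that passed in neither fit may have changed sign among the 889.

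With the replicate block in place of the date term, 3013, 1175 and 1775 genes passed in CpG CD103 high against CD103 negative, CD103 low against CD103 negative and CpG CD103 high against CD103 low. Deviations of same-numbered libraries over 10863 genes had a correlation of 0.17 between CpG CD103 high and CD103 negative. The correlation was -0.01 between CpG CD103 high and CD103 low and 0.00 between CD103 negative and CD103 low. Whether same-numbered samples shared more than a number was not tested.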

Other observations

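The genes Cd209a, Cd209d and Cd209e, lectins of the DC-SIGN family, had 0 counts in both CpG CD103 high libraries and varied widely among the untreated ones. Cd209a had 19, 4 and 100 counts in CD103 negative replicates 1, 2 and 3 and 16 and 23 counts in CD103 low. Cd209d had 8, 4 and 116 counts in CD103 negative and 13 and 0 counts in CD103 low. Cd209e had 30, 7 and 43 counts in CD103 negative and 26 and 29 counts in CD103 low. CD103 negative replicate 3 was the highest library for each of them.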
